A study of Homo sapiens with 3 samples.

Results

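The genes described here code for ribosome biogenesis and nucleolar factors, the proteins that make, modify, fold and cut ribosomal RNA and assemble it with ribosomal proteins. Members were chosen by gene name: the NOP, UTP, RRP, NOL and EXOSC series, with RRS1, BMS1, GAR1, NHP2, FBL, DKC1, NCL, NPM1, NOLC1, BOP1, PES1, WDR12, TSR1, NIP7, EBNA1BP2, GNL3 and TRMT112 where they were listed in all 3 tables of the series. This gave 47 of the 8812 transcripts listed in all 3 tables, 1 transcript a gene. No measured value entered the choice.

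Ribosomal RNA is transcribed in the nucleolus as a long precursor. Small nucleolar ribonucleoproteins (snoRNPs) guide its methylation (box C/D) and pseudouridylation (box H/ACA), the small subunit processome folds and cleaves the part that becomes the small subunit, a separate set of factors matures the large subunit, and the RNA exosome trims or destroys RNA from the 3′ end. Rapidly dividing cells make these proteins in quantity, since every cell division needs a new set of ribosomes.

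Ribosome-protected fragments (RPFs), the pieces of mRNA that a ribosome shields from nuclease, were sequenced from HEK293T, a line grown from human embryonic kidney that makes the SV40 large T antigen. Untreated cells gave 2 libraries (Untreated A and Untreated B), and cells kept for 24 h in 500 µg/mL G418, an aminoglycoside that makes the ribosome less accurate, gave 1 library (G418 A). The comparison asks how much the drug lets ribosomes run past stop codons, and what it does to translation as a whole. The study's text calls the replicates of its deeper profiling libraries biological, and the labels do not say how cultures were divided between Untreated A and Untreated B. All p-values rest on the spread between these libraries, and the lone G418 library was taken to vary as they do.

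The reads behind the deposited scale numbered 5857230 for Untreated A, 9477972 for Untreated B and 7216039 for G418 A. The CDS (coding sequence) of the members held 45697, 67216 and 52330 of these. VIM, KRT8, KRT18, NEFM and LIN28B, genes this line is known to express, were listed in every library, whereas PAX2 was listed in Untreated B alone at 1.28 RPKM. PTPRC, CD3E, ALB, PECAM1 and HBB, which mark blood, liver, endothelium and red cells, were listed in no library, and COL1A1 stood between 7.98 and 10.7 RPKM. Transcripts whose mean CDS reads reached the study's own minimum for reads on a transcript were tested, which kept 5684 transcripts and 46 of the 47 members. The exception was NOL4L, a nucleolar protein by name only, with 24, 21 and 32 CDS reads and no read between its stop codon and the next stop codon in frame in any library.

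The results turn on the stop codons of these mRNAs. Each line below gives 30 nt of mRNA around the normal termination codon (NTC), from 15 nt before it to 12 nt after it, with the NTC and the next nucleotide in capitals. The first 8 are the members past the readthrough test, most of those with the highest readthrough in their role group, and NCL, which was chosen after its values were seen. The last 4 had the lowest readthrough in theirs among members with at least 5 readthrough reads expected in G418, NOP14 in a tie with others at 0 reads.
TRMT112: gaggaaacugagaguUGAUugugccaggcg
EXOSC3: agauuggcagaaaguUGAUauagguggacu
RRP1B: gcuauggauuucuucUGAGgagcagcagag
UTP11: agucgucgaaaacguUGACguguuauagau
NOP10: ccgcgcccuguccucUGAGggucccuuaaa
FBL: cccaaggugaagaacUGAAguucagcgcug
NOLC1: aaguuugacagcgagUGACcugaggccauc
NCL: aagacgaaguuugaaUAGCuucugucccuc
NPM1: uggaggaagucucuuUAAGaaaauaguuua
GAR1: agagggagaggacauUAAGugaaacaguug
RRP15: agugacucugauacaUAAAgcaucauagga
NOP14: agaguaauaaugcuaUAAUguuggugugau

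The sequences were read from GENCODE release 44 transcripts on hg38. There 46 of the 47 members matched the deposited transcript in coding length, stop codon and, where one exists, the next stop in frame. The NTC of TRMT112 lies at chr11:64316861-64316863 on the minus strand, in exon 4 of 4. That of NOP10 lies at chr15:34341968-34341970 on the minus strand, in exon 2 of 2, and that of UTP11 at chr1:38023626-38023628 on the plus strand, in exon 8 of 8. In the first set all end in UGA except NCL, which ends in UAG, and all 4 of the second end in UAA. The second set does not hold every member that was lowest in its group. RRP9 and UTP14A, tied with NOP14, end in UGA, as does EXOSC4, the lowest of the exosome subunits. The letters UGACUA at the stop codon, searched on the mRNA strand, were found in 0 of the 25 members that end in UGA and in 22 of all 4243 matched transcripts that do (0.519%).

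Ribosome density on the CDS, given in RPKM (reads scaled by CDS length in kilobases and by library size), placed these genes high among the transcripts listed. The median untreated density of the 46 members was 89.6 RPKM against 38.3 RPKM for all 5684 transcripts, and 35 members lay above the latter value. The range among members ran from UTP20, a giant scaffold protein of the small subunit processome, at 13.5 ± 1.81 RPKM (SD, n = 2) to NPM1, the abundant nucleolar chaperone nucleophosmin, at 969 ± 116 RPKM. RPFs alone cannot tell more mRNA from more ribosomes on each mRNA, nor fewer cells from less RNA in each. In the order of untreated levels, 13 of the 45 neighbouring pairs did not overlap between the 2 untreated libraries, and the other 32 could not be placed in order beyond that spread. The top of the order was clear: NPM1, NCL, FBL and NOP10 each stood apart from the next.

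**Figure D1:**
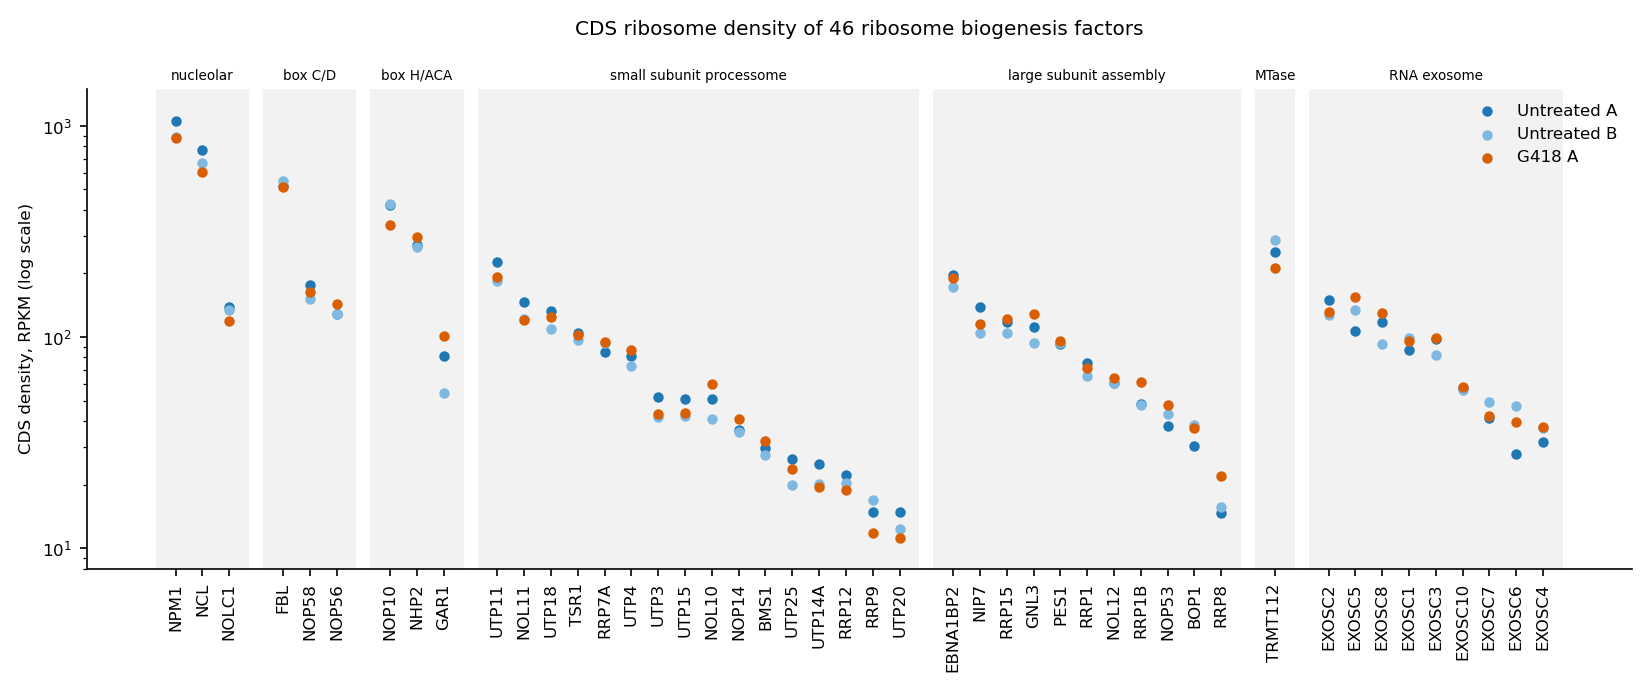
CDS density in RPKM (log scale) of the 46 members in each library, ordered by untreated mean within role groups (MTase is the methyltransferase partner TRMT112). NPM1 and NCL sit near the top in all 3 libraries and UTP20 at the bottom, and for most genes the G418 point lies close to the untreated points.

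Among the abundant nucleolar proteins, NPM1 stood at 1051 and 887 RPKM in the untreated libraries (A first, as throughout) and at 879 RPKM in G418. NCL, nucleolin, which binds nascent ribosomal RNA, stood at 770, 669 and 602 RPKM. NOLC1, the snoRNP chaperone Nopp140, was far lower at 138, 134 and 119 RPKM. In all 3 the G418 library was the lowest, though only just for NPM1.

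The subunits of the snoRNPs were not translated at equal density per length. In the box C/D particle, the methyltransferase fibrillarin (FBL) stood at 518, 545 and 512 RPKM and its scaffold partner NOP58 at 176, 151 and 163 RPKM. The other scaffold protein, NOP56, had an untreated mean of 129 ± 0.42 RPKM (SD, n = 2) and 143 RPKM in G418. FBL exceeded NOP56 by 4.14 ± 0.16 times in untreated cells (SD, n = 2) and by 3.58 times in G418. In the box H/ACA particle, NOP10 stood at 424, 425 and 339 RPKM, NHP2 at 274, 266 and 298 RPKM and GAR1 at 81.1, 54.0 and 102 RPKM. NOP10 therefore exceeded NHP2 by 1.55 and 1.60 times in the untreated libraries and by 1.13 times in G418. DKC1, the pseudouridine synthase of the particle, was not used here.

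The role group called small subunit processome gathers 16 factors of the small subunit and is not a list of the parts of that particle. It ranged from UTP20 to UTP11, a component of the early particle, at 226, 185 and 192 RPKM. NOL11, UTP18 and TSR1 had untreated means of 134, 121 and 101 RPKM. RRP7A and UTP4 followed at 89.3 and 76.8 RPKM. UTP3, UTP15, NOL10, NOP14 and the GTPase BMS1 lay between 28.7 and 46.9 RPKM. UTP25, UTP14A, RRP12 and the U3 snoRNP protein RRP9 lay between 15.8 and 23.1 RPKM. Density within this group thus ran from 13.5 to 205 RPKM.

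The 11 large subunit factors spread from RRP8, a ribosomal RNA methyltransferase, at 15.1 ± 0.66 RPKM (SD, n = 2) to EBNA1BP2 at 196, 172 and 190 RPKM. PES1 and BOP1, which work in the same complex, differed by 2.74 ± 0.40 times in untreated cells, with PES1 at 92.4, 93.9 and 95.6 RPKM. RRP1B, a paralogue of RRP1, stood at 48.2, 47.5 and 61.0 RPKM. Its G418 density was above both untreated libraries, which lay close together. NIP7, RRP15 and GNL3 (nucleostemin) had untreated means between 102 and 122 RPKM, and RRP1, NOL12 and NOP53 between 40.5 and 70.4 RPKM.

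TRMT112, the small partner that several methyltransferases need, stood at 253, 287 and 211 RPKM. Its clients include enzymes that modify 18S ribosomal RNA and the enzyme that methylates a termination factor. Both untreated values were higher than that in G418.

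The 9 exosome subunits lay within a narrower band. EXOSC2, a cap subunit, was the highest at 138 ± 15.5 RPKM untreated (SD, n = 2) and 131 RPKM in G418. EXOSC4, a ring subunit, was the lowest at 34.5 ± 3.64 and 37.3 RPKM. The cap subunits EXOSC1 and EXOSC3 had untreated means of 92.8 and 89.9 RPKM, and the ring subunits EXOSC5, EXOSC8, EXOSC7 and EXOSC6 of 120, 105, 45.4 and 37.3 RPKM. The catalytic subunit EXOSC10 held 57.3, 56.2 and 57.6 RPKM. EXOSC6 differed most between the untreated libraries, at 27.8 and 46.8 RPKM, with G418 between them at 39.7 RPKM.

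No member passed the test for a change in CDS occupancy after G418. In edgeR's quasi-likelihood test with Benjamini-Hochberg adjustment at 0.05, 0 of the 46 members passed in either direction, where 2.66% of all 5684 transcripts did (110 higher, 41 lower). At an unadjusted p under 0.05 there were 2 members, GAR1 and TRMT112 (4.35%), where 13.6% of all transcripts were. DESeq2 gave 0 members at either threshold, with 7.02% of all transcripts under 0.05 unadjusted. GAR1 differed by 0.53 ± 0.24 on the log2 scale (SE, adjusted p = 0.283) and TRMT112 by -0.43 ± 0.21 (adjusted p = 0.335). The median log2 change over members was -0.03, beside 0.00 over all transcripts tested.

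The fitted log2 changes of the members, G418 against both untreated libraries, ran from -0.49 (RRP9) to 0.53 (GAR1). The log2 RPKM ratio of Untreated B over Untreated A ran from -0.59 (GAR1) to 0.75 (EXOSC6). A ratio of 1 library over 1 varies more than a fit against 2, so the 2 ranges are not like for like. In RPKM, G418 lay above both untreated libraries for 20 members, below both for 11 and between them for 15. Outside the untreated range thus lay 31 of 46 members, where 74.2% of all transcripts did. Together the members took 0.780%, 0.709% and 0.725% of all reads in Untreated A, Untreated B and G418 A. By role, the log2 change was lowest for TRMT112, alone in its group (-0.43), followed by the median of the abundant nucleolar proteins (-0.26, 3 of 3 lower). The highest median was that of the box H/ACA proteins (0.08, 2 of 3 higher), and none of these genes passed the test.

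**Figure D2:**
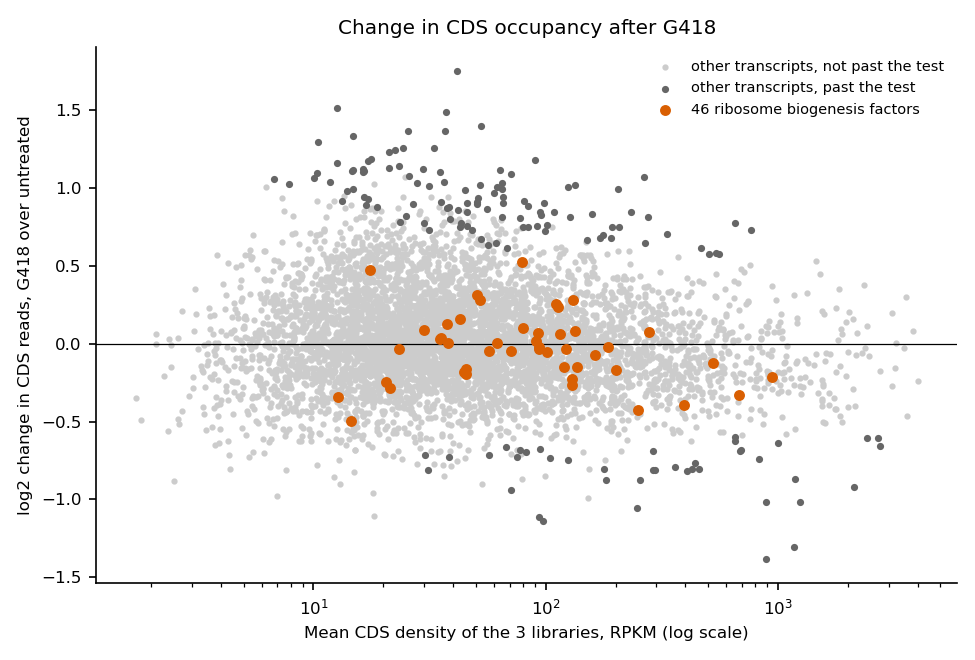
Each point is a transcript: the log2 change in CDS reads in G418 over untreated from edgeR against the mean CDS density of the 3 libraries in RPKM (log scale). The 46 members lie between -0.49 and 0.53, and none is among the dark points past the test.

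Of 72 further genes of the pathway, among them RNA polymerase I subunits, helicases, assembly factors and export factors, 61 were listed in all 3 tables and 60 had the minimum of CDS reads. None of the 60 passed the CDS test, with 3 at an unadjusted p under 0.05 in edgeR and 2 in DESeq2. Their median log2 change was -0.04.

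Readthrough was measured as the ribosome readthrough score (RRTS), the density of reads from the NTC to the next stop codon in frame in the 3′UTR (3′TC), relative to the density on the CDS of the same mRNA and given in percent. At 100% both densities are equal. BOP1, EXOSC7, NOP53 and RRP9 have no 3′TC, and their window ran to the end of the 3′UTR. The pooled RRTS of the members, which is all their readthrough reads over the reads expected at CDS density, was 2.88% in Untreated A (85 reads), 2.52% in Untreated B (112 reads) and reached 33.2% after G418 (1115 reads). The exact Poisson 95% interval of the G418 value was 31.3% to 35.2%, which covers counting error only. The fold over the untreated mean was 12.3, and Untreated A over Untreated B was 1.14. Over all 5684 transcripts the pooled values were 1.57%, 1.24% and 21.3%, and over the 60 other pathway genes 1.95%, 1.06% and 25.7%.

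The pooled value rested on few genes. NOP10, TRMT112 and FBL held 477 of the 1115 G418 readthrough reads (42.8%), and 10 members held 77.8%. Without NOP10 the G418 value was 30.5%, and without NOP10, TRMT112, FBL and UTP11 it was 21.6%. The median RRTS over members was 15.3% in G418, beside 18.4% over all transcripts, and 0% in both untreated libraries. FBL alone gave 26 of the 85 readthrough reads of Untreated A and 54 of the 112 of Untreated B. By role, the pooled G418 value was 45.4% for the box C/D proteins, 35.0% for the box H/ACA proteins and 30.8% for the small subunit processome. The exosome stood at 28.7%, the abundant nucleolar proteins at 23.8% and the large subunit factors at 19.8%. Each of these was above both of its untreated values, of which the highest were 9.55% and 11.4% in the box C/D group that holds FBL. Single genes led 3 of the groups in G418: FBL with 127 of 162 box C/D reads, NOP10 with 215 of 261 box H/ACA reads and UTP11 with 99 of 161 processome reads. The median member stood at 38.8%, 13.9% and 8.23% in these groups. No readthrough read was found in G418 for 6 of the 16 processome members.

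In the edgeR test of RRTS, 3 of the 46 members were higher in G418 and none was lower, where 2.38% of all transcripts tested were called higher and none lower. The 3 were TRMT112, NOP10 and UTP11. A further 5 members, FBL, NOLC1, NPM1, NCL and RRP12, had an unadjusted p under 0.05 (8 in all, or 17.4%, where 6.95% of all transcripts had). Such shares also depend on how many readthrough reads were expected, which was not matched between members and all transcripts. DESeq2 with the same offsets called 0 of the 5684 transcripts, members included, with 6 members and 7.25% of all transcripts at an unadjusted p under 0.05. None of the other 60 pathway genes passed in edgeR.

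TRMT112 had 4 and 1 readthrough reads untreated and 135 after G418 over a window of 42 nt. The RRTS was 6.42%, 0.87% and 211%, so the window held ribosomes at a higher density than the CDS. The ratio of G418 to the summed untreated libraries was 74.5 (95% interval 31.2 to 233), and the log2 change in the fit was 5.93 ± 1.41 (SE, adjusted p = 0.00216 in edgeR, 0.0980 in DESeq2). The stop codon is UGA followed by U.

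NOP10 had 13, 2 and 215 readthrough reads over 168 nt, the most of any member in G418, with an RRTS of 3.12%, 0.30% and 52.4%. Its ratio was 38.1 (22.6 to 69.4) and its log2 change 4.98 ± 0.92 (SE, adjusted p = 1.41e-05 in edgeR, 0.116 in DESeq2). UTP11 had 3, 0 and 99 reads over 120 nt, with an RRTS of 1.89%, 0% and 59.7%. Its ratio was 73.4 (24.4 to 362) and its log2 change 5.97 ± 1.83 (SE, adjusted p = 0.0472), which passed 0.05 by a narrow margin. UTP11 was no longer called with no filter on CDS reads (adjusted p = 0.0572), with windows of at least 60 nt (0.0727) or in DESeq2 (0.0988).

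FBL had the most readthrough reads of any member in both untreated libraries. It had 26 and 54 reads untreated and 127 after G418 over 60 nt, with an RRTS of 14.3%, 17.4% and 57.3%. The other 45 members together had 2.13% and 1.40% in the untreated libraries, well under the values of FBL. The ratio of FBL, 3.52 (2.64 to 4.72), was among the smaller ones. Its adjusted p in edgeR was 0.0929, passing only among transcripts with at least 500 CDS reads (0.0169). The FBL stop codon is UGA followed by A.

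An RRTS of 100% or more in G418 was reached by 406 of all 5684 transcripts (7.14%) and by 4 of the 46 members (8.70%). Each of these 4 members had at least 5 reads expected. Beside TRMT112 these were EXOSC3, RRP1B and EXOSC6, all ending in UGA. EXOSC3 had 2, 14 and 33 reads over 24 nt, with an RRTS of 14.6%, 74.6% and 193%, and its 2 untreated values lay far apart. RRP1B had 0, 0 and 43 reads over 81 nt and an RRTS of 121% in G418, at least 23.9-fold higher than untreated, with 3 reads over both untreated libraries as the bound. EXOSC6 had 4, 5 and 35 reads over 108 nt, with an RRTS of 22.7%, 10.4% and 113%. None of the 3 passed the edgeR test (adjusted p = 0.579 for each).

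The abundant nucleolar proteins showed how far apart well-covered genes could lie. NOLC1, which ends in UGA, had 0, 8 and 55 reads and an RRTS of 0%, 5.53% and 56.2%. NCL, which ends in UAG, had 0, 0 and 57 reads over 27 nt and an RRTS of 48.6% in G418, at least 47.5-fold higher than untreated by the same bound. NPM1, which ends in UAA and had the most reads expected of any member (495 in G418), had 3, 3 and 57 reads and an RRTS of 0.62%, 0.46% and 11.5%. The intervals of NOLC1 (42.3% to 73.2%) and NPM1 (8.72% to 14.9%) in G418 did not overlap.

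In the box C/D particle NOP58 was the lowest at 19.3% (17 reads in G418, 2 and 0 untreated) and NOP56 lay at 38.8% (18 reads, none untreated). The box H/ACA subunits NHP2 and GAR1 reached 13.9% (44 reads, 1 and 1 untreated) and 11.4% (2 reads, none untreated). The value of GAR1 was below the level of 3 reads, 17.1%. Counting error alone spans 1.38% to 41.1% there.

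Of the large subunit factors with at least 5 readthrough reads expected in G418, RRP1B was the highest and RRP15 the lowest at 7.99%, with 4, 0 and 4 reads. EBNA1BP2, the most densely translated of them, had 4, 5 and 17 reads and an RRTS of 2.84%, 2.49% and 10.1%. NIP7, with the longest window at 213 nt, had 2, 3 and 23 reads, which put its G418 RRTS between 8.25% and 19.5%. GNL3, NOP53 and BOP1 had 4 reads each in G418, and their intervals overlapped those of the untreated libraries. PES1 had 7 reads against none in the untreated libraries, RRP1 3 against none and NOL12 1 against none. RRP8 had no readthrough read at all, with a window of 12 nt.

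The small subunit processome spread widely. UTP25 reached 97.9% on 7 reads, with an interval of 39.4% to 202%. RRP12 and NOL10 followed at 61.2% (10 reads) and 64.5% (5 reads), both with none untreated, and RRP7A had 1, 3 and 22 reads and 46.6% in G418. At the other end UTP18, RRP9, UTP14A and NOP14 had no readthrough read in G418. For NOP14, with 23.9 reads expected at CDS density, the limit at 3 reads was an RRTS of 12.5%, and the exact Poisson upper bound was 15.4%. For UTP18, RRP9 and UTP14A the limit at 3 reads was 18.6%, 54.1% and 37.7%. The members' median was 15.3%, so the exact bound places none of these genes below it. UTP14A was the only member with reads in both untreated libraries (1 and 2) and none in G418. UTP3 and UTP20 had no readthrough read in any library, with 3.72 and 1.70 expected in G418. UTP4 had 1 read in G418 where 48.7 were expected, and TSR1 had 4, 0 and 5 reads and an RRTS of 4.45% in G418. Both end in UAA. NOL11, UTP15 and BMS1 had 5, 6 and 1 reads in G418, with 0, 6 and 0 in the untreated libraries together.

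Among exosome subunits EXOSC2 reached 5.89% on 6 reads, with 2 and 1 untreated, EXOSC1 3.43% on 3 reads and EXOSC8 7.62% on 3 reads. EXOSC4 had no readthrough read in any library, with 5.66 expected in G418 and a limit of 53.0%. EXOSC5 reached 16.6% on 10 reads with none untreated, and EXOSC7 had 0, 7 and 16 reads and 43.9% in G418. EXOSC10, which ends in UAG, had 3, 0 and 11 reads and 38.3%.

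**Figure D3:**
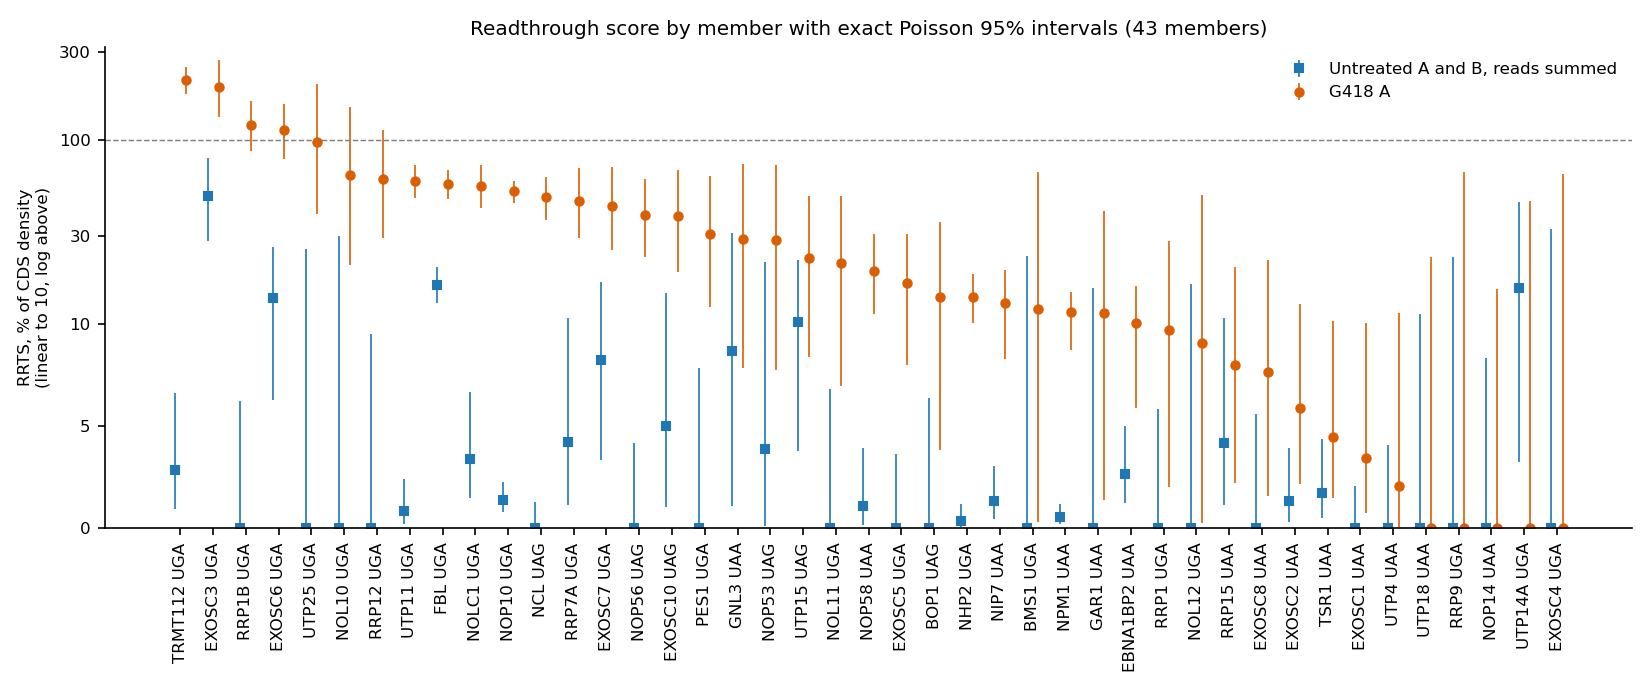
RRTS of the 43 members with at least 5 expected reads in G418, in percent of CDS density (linear to 10, log above), with exact Poisson 95% intervals. Blue squares sum both untreated libraries, orange circles are G418 A, the dashed line marks 100%, and each name carries its stop codon. TRMT112 and EXOSC3 stand above the line with their whole intervals and 5 members on the right are at 0 in G418.

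A looser rule, chosen after the values were seen, asks whether the Poisson interval of the G418 RRTS lies above the intervals of both untreated libraries. The rule takes no account of variation between cultures, and intervals separate more easily where more reads are expected. Under 5 readthrough reads were expected in G418 for 3 of the 46 members, but for 977 of all 5684 transcripts. Shares of members and of all transcripts are therefore not like for like. The rule held for 16 of 46 members, where it held for 25.8% of all transcripts. Grouped by role these were all 3 abundant nucleolar proteins, all 3 box C/D proteins, 2 of 3 box H/ACA proteins, TRMT112, 3 of 16 processome members, 2 of 11 large subunit factors and 2 of 9 exosome subunits. In all, 37 of 46 members had a higher RRTS in G418 than in either untreated library, where 71.9% of all transcripts did. No readthrough read in any library was found for 7 members, and for 21.1% of all transcripts.

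The members ordered by stop codon as the whole table did, UGA above UAG above UAA. UGA closes 25 of the 46 members (54.3%, beside 48.9% of all transcripts), UAA 15 and UAG 6. The pooled G418 RRTS was 52.7% for UGA (interval 49.3% to 56.3%). It was 38.3% for UAG (interval 31.1% to 46.5%) and 9.85% for UAA (interval 8.29% to 11.6%). Those of all transcripts were 29.9%, 19.2% and 12.2%. Members ending in UGA or UAG thus lay above all transcripts of their class and those ending in UAA below, a description with no test. Medians gave the same picture, at 43.9%, 33.4% and 7.62% for members and 27.5%, 16.3% and 9.07% for all.

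The UAG value leaned on NCL, without which it was 29.9%. Of the members ending in UAA only NOP58 and GNL3, both with UAA followed by C, exceeded 15% in G418. By the nucleotide after UGA, the pooled G418 values were 110% for U (6 members), 64.1% for A (4), 55.6% for C (5) and 37.7% for G (10), whereas over all transcripts C was the highest at 38.7% and U stood at 36.4%. The value for U came mostly from TRMT112, with 135 of its 197 reads. The other 3 values also leaned on few genes. FBL had 127 of the 169 reads for A, and NOP10 215 of the 353 for G. For C, UTP11 had 99 and NOLC1 55 of the 154 reads, 3 of the 5 members had none and the median was 0%. The interval rule held for 11 of 25 members with UGA, 2 of 6 with UAG and 3 of 15 with UAA, where it held for 30.7%, 24.8% and 18.7% of all transcripts of these classes. The share for UAA was thus close to that of all transcripts, and expected reads were not matched in any of the 3 classes.

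**Figure D4:**
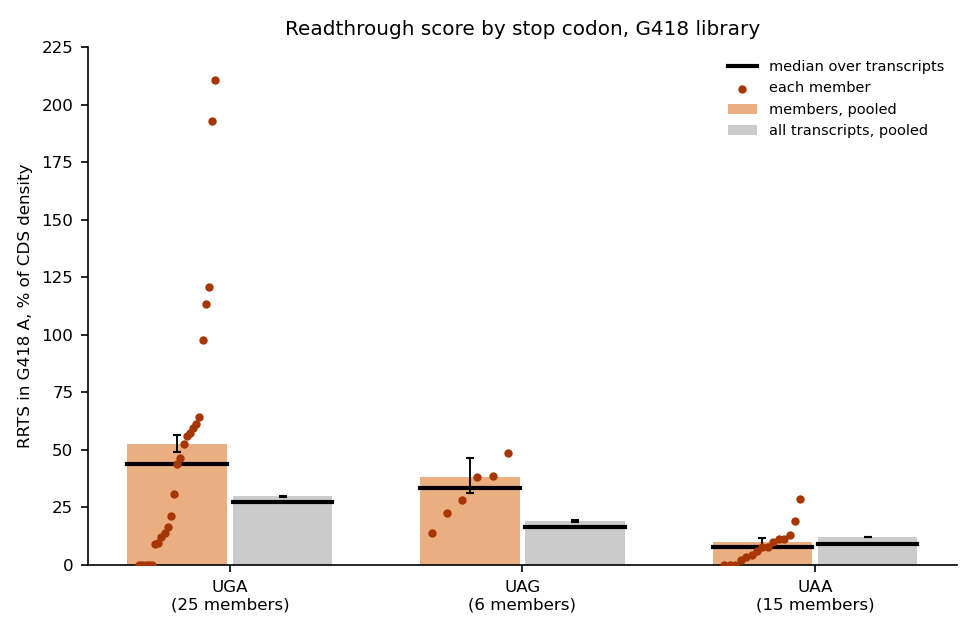
RRTS in G418 A by stop codon, in percent of CDS density. Bars are pooled values of the members (orange) and of all transcripts (grey) with exact Poisson 95% intervals, black lines are medians, and dots are single members. The pooled value of the members falls from 52.7% for UGA to 9.85% for UAA, and within UGA single members run from 0% to 211%.

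Beyond the 3′TC, reads were sparse. For the 37 members with a 3′TC and at least 30 nt of 3′UTR after it, G418 A held 952 reads before the 3′TC and 477 after it, over 2577 and 52429 nt. Density after it was 0.0246 of that before (0.0220 to 0.0275), beside 0.0301 for all transcripts. Reads and lengths were summed over transcripts without scaling to the CDS density of each mRNA. The ratio therefore also depends on how densely translated the mRNAs with long 3′UTRs are, and is not the drop at a single 3′TC. The untreated ratios were 0.0411 and 0.0511, on 46 and 53 reads after the 3′TC. Density was lower after the 3′TC than before it in 32 of the 37 members in G418 and higher in 4, UTP18, RRP8, UTP20 and UTP14A, none of which had a readthrough read there.

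TRMT112 and NCL held the most of the later reads. TRMT112 had 90 reads in the 122 nt after its 3′TC in G418, or 73.8 reads per 100 nt, against 321 per 100 nt before it. Its untreated libraries had 6 and 2 there. NCL had 168 reads over 1627 nt after its 3′TC, with 6 and 10 untreated, and 211 reads per 100 nt before it against 10.3 after. Without NCL the ratio of the members was 0.0173. NOP10, by contrast, had 4 reads in the 81 nt after its 3′TC, and UTP11 18 reads in 1066 nt.

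**Figure D5:**
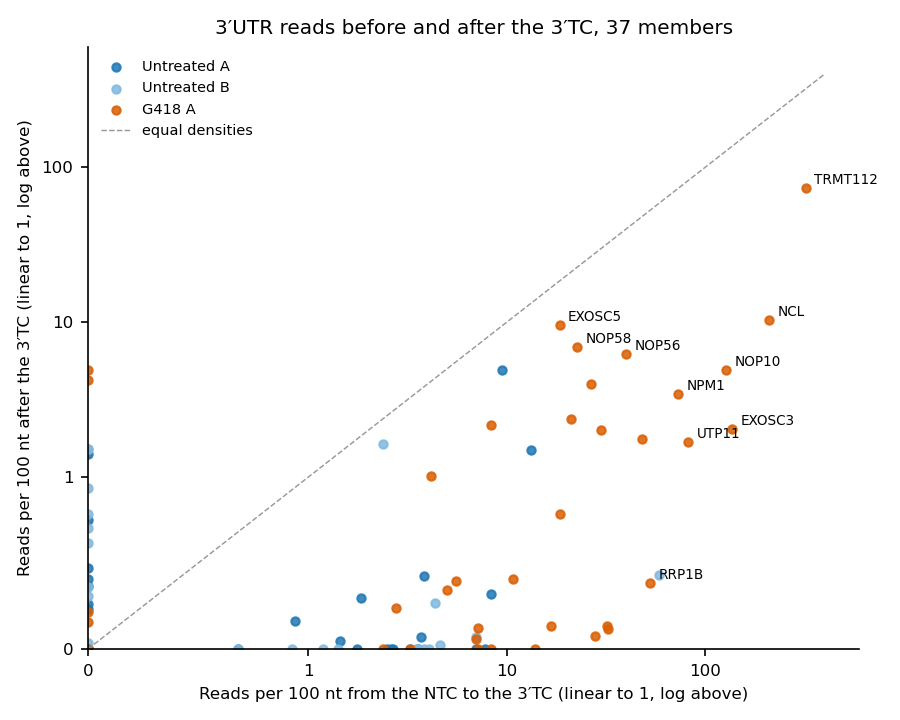
Reads per 100 nt after the 3′TC against reads per 100 nt from the NTC to the 3′TC for 37 members in each library (both axes linear to 1, log above). All G418 points with reads before the 3′TC lie below the dashed line of equal densities, with TRMT112 at 321 before and 73.8 after.

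The windows of some members overlap other annotation in GENCODE release 44. All 27 nt of the NCL window, all 18 nt of the UTP18 window, 40 of 41 nt of the NOP53 window and 6 of 168 nt of the NOP10 window are coding in another transcript on the same strand, and all 24 nt of the NOL12 window lie in an exon of another gene. None of the windows of TRMT112, UTP11, FBL, EXOSC3, EXOSC6 and RRP1B overlaps such sequence. The tables kept 1 alignment of a read that matched several places, and 13 members have at least 1 pseudogene of their name in RefSeq, among them NPM1 with 50, BMS1 with 21 and TRMT112 with 8, so reads of these genes can be credited to a copy or the reverse. The part of either in the values was not tested.

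Reads in the 5′UTR were few. Of the 38 members with a 5′UTR of at least 20 nt, 0 passed the edgeR test of 5′UTR reads relative to CDS reads, where 0.441% of 5214 transcripts did, and 2 (5.26%) had an unadjusted p under 0.05, beside 5.70% of all transcripts. The members had 0.985, 0.888 and 0.863 5′UTR reads per 100 CDS reads across Untreated A, Untreated B and G418 A, beside 1.83, 1.95 and 1.66 for all transcripts tested. The most 5′UTR reads of any member lay on NHP2, with 91, 92 and 103 against 688, 1082 and 924 CDS reads. NCL, EBNA1BP2 and NOP58 followed with 69, 59 and 44 reads in G418. Both members under 0.05 unadjusted were lower in G418: RRP12 (adjusted p = 0.339) and UTP11 (adjusted p = 0.734). DESeq2 was not run on these reads.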

How the data were processed

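Per the labels and the study's methods, the authors collapsed reads by unique molecular identifier, removed adapters and noncoding RNA, aligned with STAR to hg38, kept the primary alignment, and assigned fragments of 28 to 35 nt to the A site on 1 transcript a gene. The authors deposited RPM values (reads scaled to a common library size) of the CDS, 5′UTR and 3′UTR, RPKM densities, whole-number CDS counts, and RRTS, a ratio of RPKM densities. The first 6 nt after the stop codon are left out of the 3′UTR values.

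Every nonzero RPM value was a whole number of reads within 0.01 (100% in each library), so reads were recovered by division and used in place of the deposited counts, which the design had named. The deposited CDS count was 1 lower in 9080, 283 and 72 transcripts of Untreated A, Untreated B and G418 A. Recovered RRTS equalled the deposited ratio for all 8812 transcripts within 0.01 percentage points.

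Groups came from the treatment label. CDS reads, readthrough reads (offset: reads expected from the CDS density) and 5′UTR reads (offset: CDS reads) were tested with edgeR 4.0.16 (R 4.3.3; TMM for CDS reads; 1 residual degree of freedom; transcripts averaging 128 or more CDS reads over the libraries; Benjamini-Hochberg at 0.05). DESeq2 1.42.0, other scalings, filters and left-out libraries were alternatives. Fitted log2 changes of genes without untreated reads depend on the prior count and are not printed. Tested on simulated data of 5684 transcripts, the CDS test recovered 54 of 54 transcripts raised 2-fold and 75 of 81 lowered to 0.5-fold. The readthrough test recovered 26 of 101 raised 32-fold and 4 of 99 raised 8-fold. The readthrough simulation assumed its dispersion and left all other transcripts at untreated rates, whereas in G418 A the pooled RRTS of all transcripts was raised. Its recovery rates therefore need not hold for the real libraries. The 5′UTR test, on 5214 transcripts, recovered 37 of 94 raised 4-fold and 10 of 106 lowered to 0.25-fold. Intervals are exact (Poisson for values, conditional binomial for ratios, 95%) and cover counting error only. The limit for 0 reads is 3 reads.

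Named were members past a test, in each of 7 role groups the member with the highest untreated CDS density and those with the highest and lowest G418 RRTS (at least 5 reads expected), and members under the filter. Further members are named so that each is accounted for. Members and lists were chosen with earlier results of these data known. Sequences come from GENCODE release 44 and pseudogene names from RefSeq.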

Additional observations from a re-analysis of the deposited data

How the results depend on the processing

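No paired analysis was possible because the groups share fewer than 2 replicate letters. Leaving out an untreated library leaves 1 library against 1, so these fits give values and no test, and no count of called members could be computed for them. The count of 0 members called for CDS reads held with library totals, DESeq2 size factors, no filter, at least 500 CDS reads, the deposited counts and DESeq2, and the count of 0 for 5′UTR reads with no filter, at least 500 CDS reads and 5′UTRs of at least 60 nt. Called for RRTS were 2 members with no filter (NOP10, TRMT112), 3 with at least 500 CDS reads (FBL, TRMT112, UTP11), 1 with windows of at least 60 nt (NOP10) and 0 in DESeq2. TRMT112, with 42 nt, is not tested in windows of at least 60 nt, and NOP10 has under 500 CDS reads. The median CDS change of members moved from -0.032 to 0.037 with library totals, which put the median of all transcripts at 0.068. Without Untreated A or B it ran from -0.08 to 0.00. The pooled RRTS in G418 moved from 33.2% to 29.2% with windows of at least 60 nt, 30.5% without NOP10 and 15.3% as the median of deposited values, a median that was 0% in both untreated libraries. Its fold moved from 12.3 to 10.6 without NOP10 and 17.8 without FBL, and ran from 11.5 to 13.2 without an untreated library. In windows of at least 60 nt, RRTS moved to 47.3% for UGA and 25.1% for UAG, and without NCL to 29.9% for UAG. The ratio of densities across the 3′TC in G418 moved from 0.0246 to 0.0338 with at least 500 CDS reads and 0.0135 with windows of at least 60 nt. Its untreated mean ran from 0.0411 to 0.0511 without an untreated library. The looser interval rule gave 16 members, 17 to 19 without an untreated library. FBL and NCL as left-out genes and the interval rule were chosen after seeing the data. Depth limits single genes: the median member had 30.9 readthrough reads expected in G418.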
